A study of Mus musculus with 3 samples.

Results

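The collagen genes studied here are 36 genes of the mouse collagen family, a list given by gene symbol, with no measured value in its rule. All 36 were found among 22367 protein-coding genes of the annotation, on 13 chromosomes. Each was examined over its gene body and the 5 kb upstream, in mouse genome build mm9 (NCBI build 37). The tags came from 3 libraries of primary mouse embryonic fibroblasts (MEF) of C57BL/6 embryos of 14.5 days, at passages 6 to 7: a ChIP-Seq library of wild-type cells, a ChIP-Seq library of NFI-C knock-out cells, and input DNA of wild-type cells without antibody. Both ChIP libraries were made with an antibody, NFI (H300), directed against the NFI family as a group. Knock-out cells lack NFI-C and may hold the other family members, so the knock-out library is not a control free of NFI. Each condition had 1 library, so no spread between samples could be had and no test of a difference between conditions was made. All intervals are 95% intervals that cover counting error only.

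Collagens are the main structural proteins of the extracellular matrix, and fibroblasts are a major source of them. Fibrillar collagens (types I, II, III, V, XI, XXIV and XXVII) assemble into fibres. Type IV collagens form the network of basement membranes. The other classes include beaded filaments (type VI), the FACIT collagens that attach to fibril surfaces, short chain collagens, transmembrane collagens, the anchoring fibril collagen VII and the multiplexins. NFI proteins are transcription factors that bind as dimers to a palindrome, TTGGCA and TGCCAA with 3 free bases between. Promoters of collagen genes are among the promoters at which NFI binding has long been studied, that of Col1a2 included.

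The counted tags numbered 3350071 in wild-type ChIP, 3132004 in knock-out ChIP and 4100449 in input, which is 0.393, 0.367 and 0.481 tags per 300 bp on genome average. A tag is a uniquely mapped read, and reads that start at the same base of the same strand count once. At this depth a single site rests on few tags, and values summed over genes or over sites are the more reliable. The label of the knock-out library carries a description that names wild-type cells, and its title was followed here. Over Nfic, the targeted gene, and its 5 kb upstream the wild-type ChIP had 57 tags, the knock-out ChIP 74 and the input 172. The deleted part of the gene was not looked for, so these tags do not check the label. A site below means an entry of the deposited list of NFI binding sites, which was called on the wild-type library, each entry being an interval of 16 bp. The wild-type tags at these sites are therefore a description.

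Of the 36 collagen genes, 5 carried a site in the 5 kb upstream, with 6 sites in all. Their sequences are shown because they lie before the starts of these genes. Some sites inside genes lay closer to a start, such as those 94 bp after the start of Col12a1 and 202 bp after that of Col11a1. Each is written 5′ to 3′ on the strand of its gene, with the deposited interval in capitals.
Col1a1, chr11:94794861-94794956: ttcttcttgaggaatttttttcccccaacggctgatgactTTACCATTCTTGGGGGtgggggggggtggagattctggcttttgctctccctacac
Col3a1, chr1:45365800-45365895: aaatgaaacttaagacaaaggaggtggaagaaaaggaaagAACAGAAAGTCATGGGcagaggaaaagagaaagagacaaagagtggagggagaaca
Col3a1, chr1:45368298-45368388: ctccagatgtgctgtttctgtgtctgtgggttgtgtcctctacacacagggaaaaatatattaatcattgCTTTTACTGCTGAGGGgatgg
Col4a1, chr8:11315966-11316061: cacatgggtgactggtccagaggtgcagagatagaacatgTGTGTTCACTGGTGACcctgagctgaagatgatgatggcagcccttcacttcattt
Col6a3, chr1:92741831-92741926: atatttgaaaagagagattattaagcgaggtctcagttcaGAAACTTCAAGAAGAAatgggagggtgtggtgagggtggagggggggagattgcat
Col11a1, chr3:113732582-113732677: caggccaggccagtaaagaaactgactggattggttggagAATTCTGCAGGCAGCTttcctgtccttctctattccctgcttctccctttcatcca

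Type I collagen is the most abundant collagen of skin, bone and tendon. The upstream site of Col1a1, which encodes its alpha 1 chain, lay 2630 bp before the gene start and held 4 tags of the wild-type ChIP, 2 of the knock-out ChIP and 0 of the input in 300 bp. Type III collagen accompanies type I in elastic tissues. Its gene Col3a1 had an upstream site at 2536 bp before the start, with 4 tags, and a second at 8 bp before the start, with 3 tags, all of them from the wild-type ChIP. A count of 0 allows up to 3 tags, as a one-sided limit. The upstream site of Col11a1, at 829 bp before the start, had 3 tags, again from the wild-type ChIP alone. The site of Col6a3, a chain of the beaded filament collagen VI, lay 1349 bp before the start, with 3 tags in wild-type ChIP, 0 in knock-out ChIP and 1 in input. The site upstream of Col4a1 lay 3187 bp before its start, which is also within an intron of Col4a2, whose start is only 21 bp away on the other strand, and the same libraries gave it 3, 2 and 1 tags. Among the 36 genes, 5 with an upstream site is 13.9%, next to 11.8% of all protein-coding genes, so the collagen genes were close to the background in this respect.

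The sites of collagen genes lay mostly inside the genes. Over gene body and 5 kb upstream, 26 of 36 collagen genes had 1 or more sites, next to 41.9% of protein-coding genes, and 15 of 36 had 5 or more, next to 5.05%. In all there were 121 pairs of a gene and a site and 120 different sites, the 1 shared site being that between Col4a1 and Col4a2. Of the 120 sites, 104 were in introns, 11 in exons and 5 upstream of every collagen gene. For the sites of all protein-coding genes, 80.2% were in introns, 11.2% in exons and 8.56% upstream. Along the gene bodies, successive stretches of 25% from start to end held 32, 33, 19 and 31 sites.

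Collagen genes are long, and longer genes hold more sites. The collagen regions ran from 12.1 to 424 kb with a median of 115 kb, whereas the median of all protein-coding genes was 20.4 kb. When each collagen gene was given the mean number of sites of all protein-coding genes in its length class, the sum was 94.7 sites, and 121 were found, a ratio of 1.28 (1.06 to 1.53). The 13 collagen genes between 100 and 200 kb had a mean of 4.92 sites and all 13 had a site, against a mean of 2.88 over 1544 genes of this length, of which 86.6% had a site. The 5 collagen genes between 200 and 400 kb had a mean of 4.60, against 5.95. The 10 collagen genes without a site were at most 50.8 kb long. Per 100 kb, the collagen genes held 2.85 sites (2.36 to 3.40) and all protein-coding genes, which include them, held 2.11 (2.08 to 2.13).

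**Figure D1:**
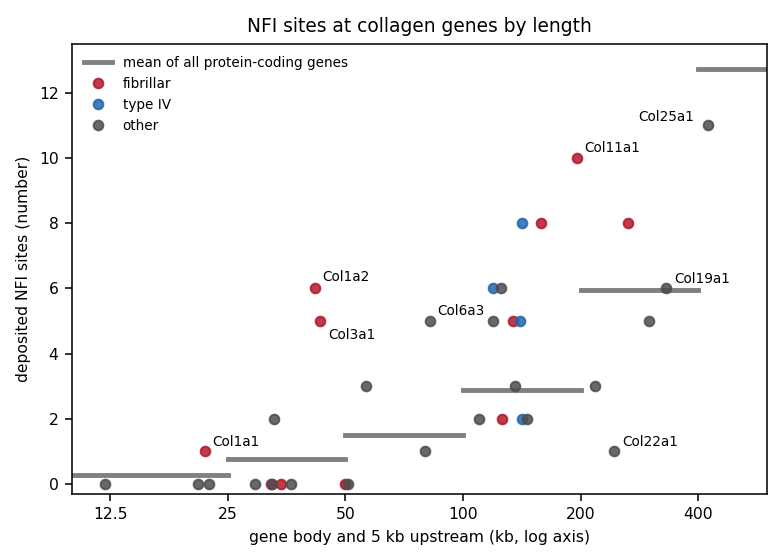
Number of deposited NFI sites in gene body and 5 kb upstream (vertical axis) against the length of that region in kb (horizontal axis, log scale) for the 36 collagen genes, coloured by class, with grey bars for the mean of all protein-coding genes of the same length class. Collagen genes between 100 and 200 kb averaged 4.92 sites where all genes averaged 2.88, and the 10 genes at 0 were all 50.8 kb or shorter.

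Set against gene length, sites were in excess in fibrillar and type IV collagens, whereas the pooled other class was close to its length. The 11 fibrillar genes held 45 sites where genes of like length gave 22.3, a ratio of 2.02 (1.47 to 2.70). The 4 type IV genes held 21 sites where 11.5 were given by length, a ratio of 1.83 (1.13 to 2.79), or 1.74 (1.06 to 2.69) when the site shared by Col4a1 and Col4a2 is counted once. The 21 other collagen genes held 55 sites, where 60.9 were given by length, a ratio of 0.904 (0.681 to 1.18). Within that class the 3 beaded filament genes held 7 sites where 2.56 were given by length, a ratio of 2.73 (1.10 to 5.63). Per 100 kb, the densities were 4.09 (2.98 to 5.47), 3.87 (2.40 to 5.92) and 2.11 (1.59 to 2.75). The density of fibrillar genes was 1.94 times (1.28 to 2.93) that of the other class, and 1.06 times (0.616 to 1.87) that of the type IV genes, an interval that leaves room for a difference in both directions. Leaving out any single gene moved the density of the fibrillar class between 3.68 and 4.42 and that of the type IV class between 3.24 and 4.74. Within the other class, the density ran from 0 in the single anchoring fibril gene, Col7a1, over 1.67 in short chain, 1.81 in FACIT and 1.96 in transmembrane collagens to 3.05 in multiplexins and 5.10 (2.05 to 10.5) in the beaded filament genes Col6a1, Col6a2 and Col6a3. The subclasses are small and most of these values rest on fewer than 10 sites. Tag depth differed between the 3 classes as well. Input was at 1.28-fold of the genome average in fibrillar, 1.38-fold in type IV and 1.14-fold in other genes. Wild-type ChIP was at 1.40-fold, 1.21-fold and 1.13-fold. The authors called sites at a fixed tag threshold, and a link of site number to depth was not tested.

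The largest numbers of sites were found in Col25a1, a transmembrane collagen, with 11, in Col11a1, a fibrillar collagen of cartilage, with 10, and in Col4a2, Col5a1 and Col24a1 with 8 each. Col25a1 is also the longest region at 424 kb, and 11 sites is below the mean of 12.7 of the genes over 400 kb. The densest genes were Col1a2 with 14.4 sites per 100 kb, Col3a1 with 11.6 and Col6a3 with 6.09. Col6a2 came next with 6.08, which is not separable from Col6a3.

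Type I, III and V collagens are the main fibrillar collagens made by fibroblasts. Col1a1 (chr11:94797538-94814356) had the upstream site alone. Col1a2 (chr6:4454814-4491543), which encodes the other chain of type I collagen, had 6 sites, of which 3 lay at 1002, 1683 and 2733 bp after the start and 3 between 15962 and 27629 bp. The tags at the 3 sites close to the start were 3, 4 and 3 in wild-type ChIP, 1, 1 and 0 in knock-out ChIP and 1, 0 and 3 in input. Col3a1 (chr1:45368383-45406551) had 5 sites, of which 2 were upstream and 3 at 886, 5073 and 30658 bp after the start. Its 5 sites together held no more than 1 knock-out tag and 2 input tags. Col5a2, which encodes a chain of the collagen that sets fibril diameter and lies 24614 bp from Col3a1 in the opposite orientation, had 5 sites, all intronic and between 50877 and 126304 bp from its start, with 3 or 4 wild-type tags each and 1 knock-out tag in all. Col5a1 had 8 sites from 757 to 115392 bp after the start, and Col5a3 had none. The type IV genes Col4a1 and Col4a2, which make the common chains of basement membranes, had 6 and 8 sites, all 13 different sites lying within H3K4me3-rich and H3K36me3-rich regions. H3K36me3-rich regions cover 100% of both genes, which fixes this for that mark. H3K4me3-rich regions cover 100% of Col4a1 and 83.8% of Col4a2, so little of them lies outside.

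Tags at single sites were few. In 300 bp around the 120 sites, 10 sites had 5 or more wild-type tags, 81 had 3 or 4, and 29 had 1 or 2. Of all 39807 sites, 4388 had 5 or more. With a 600 bp window and tags moved by 75 bp towards the fragment centre, 117 of 120 had 5 or more, next to 39600 of all 39807 sites. Moving the tags in the 300 bp window alone gave 16. No knock-out tag was found at 77 sites (64.2%), next to 58.4% of all 39807 sites, and no input tag at 65 (54.2%), next to 53.6%. Both libraries lacked a tag at 40 sites, and 4 sites had more knock-out than wild-type tags. These counts were not made for all sites, so they have no background here. The mean over the 120 sites was 8.04-fold over the genome average in wild-type ChIP, as the selection of sites fixes, 1.68-fold (1.32 to 2.11) in knock-out ChIP and 1.54-fold (1.24 to 1.90) in input. Knock-out over input was thus 1.09 (0.789 to 1.499) at the collagen sites, and 1.12 (1.10 to 1.14) at all sites. With sites of 5 or more input tags left out, it was 1.20 (0.861 to 1.66) and 1.42 (1.40 to 1.45). Leaving these out lowers the input by selection. At the 20 sites of type IV genes, knock-out ChIP reached 2.72-fold (1.66 to 4.21) and input 2.18-fold (1.35 to 3.34). At the 45 fibrillar sites they were at 1.39-fold (0.882 to 2.09) and 1.43-fold (0.974 to 2.03).

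The 5 best covered collagen sites, by wild-type tags and with sites of 5 or more input tags left aside, are shown next. There were 3 sites with more than 5 wild-type tags and 7 tied at 5, of which the first 2 by chromosome and position are shown. All 5 shown were intronic, and capitals mark the deposited interval on the strand of the gene.
Col18a1, chr10:76614216-76614311: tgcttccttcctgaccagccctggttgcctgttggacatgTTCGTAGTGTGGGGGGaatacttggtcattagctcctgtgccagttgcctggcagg
Col8a1, chr16:57650128-57650223: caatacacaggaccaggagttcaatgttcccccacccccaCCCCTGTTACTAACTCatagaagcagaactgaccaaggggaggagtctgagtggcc
Col19a1, chr1:24581208-24581303: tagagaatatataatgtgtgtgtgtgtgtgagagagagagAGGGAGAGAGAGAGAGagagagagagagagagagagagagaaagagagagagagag
Col4a3, chr1:82594116-82594211: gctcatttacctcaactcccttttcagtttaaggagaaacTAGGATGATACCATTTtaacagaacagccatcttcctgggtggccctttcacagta
Col11a1, chr3:113907661-113907756: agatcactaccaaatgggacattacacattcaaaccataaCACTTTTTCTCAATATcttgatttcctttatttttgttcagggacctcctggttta

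The site in Col18a1, whose product holds the endostatin fragment, had 7 tags in wild-type ChIP, 0 in knock-out ChIP and 3 in input. The site in the short chain collagen gene Col8a1 had 7, 5 and 1, and so kept tags in the knock-out library. The site in Col19a1 had 6 tags, all from the wild-type ChIP, and its sequence is a run of repeated AG. The site in Col4a3, a chain of the basement membrane of the kidney glomerulus, had 5, 4 and 1. The site in Col11a1 had 5, 0 and 1. A further site, 94 bp after the start of the FACIT gene Col12a1, was the only one of the 120 with 5 or more input tags, with 4, 0 and 8 tags in the same order.

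The sites were next compared with the NFI consensus, TTGGCANNNTGCCAA, searched on both strands with at most 2 mismatches in its 12 fixed positions. The collagen regions held 184 matches, or 4.35 per 100 kb, against 4.13 per 100 kb in the genome. Of 120 collagen sites, 4 had a match within 150 bp (3.33%, next to 3.13% of all sites). These 4 are shown with the match in capitals, each with 2 mismatches. The stretch of Col1a2 holds the match but not the site, which lies before it at chr6:4455809-4455824.
Col1a2, chr6:4455889-4455978: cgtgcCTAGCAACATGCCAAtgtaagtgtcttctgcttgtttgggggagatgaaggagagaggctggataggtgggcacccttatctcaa
Col11a1, chr3:113849438-113849544: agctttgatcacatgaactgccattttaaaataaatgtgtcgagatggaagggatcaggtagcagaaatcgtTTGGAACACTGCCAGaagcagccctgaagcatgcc
Col16a1, chr4:129727827-129727898: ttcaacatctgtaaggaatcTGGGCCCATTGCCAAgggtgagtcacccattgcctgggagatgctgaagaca
Col25a1, chr3:130040870-130041028: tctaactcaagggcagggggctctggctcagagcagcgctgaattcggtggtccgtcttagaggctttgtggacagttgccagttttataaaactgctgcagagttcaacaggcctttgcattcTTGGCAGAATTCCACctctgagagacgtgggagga

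In 300 bp and in the same order of libraries, 3, 1 and 1 tags were counted at the site of Col1a2, 3, 1 and 0 at that of Col11a1, 4, 3 and 0 at that of Col16a1, a FACIT gene, and 5, 2 and 1 at that of Col25a1. All 4 sites held 1 or more tags in the knock-out library, where 58.4% of all 39807 sites held none. With 4 sites of 1 to 3 knock-out tags, no difference from the other sites can be read. At the 184 matches in collagen genes, whether or not at a site, the wild-type ChIP held 1.60 times (1.20 to 2.13) and the knock-out ChIP 1.78 times (1.34 to 2.37) the tags of the input, while the input itself was at 1.01-fold of the genome average. The matches of all protein-coding genes gave 1.24 and 1.25. With at most 1 mismatch, 6 matches remained, 2 of them in Col4a4 and 1 each in Col6a3, Col17a1, Col23a1 and Col24a1, with 7 tags of wild-type ChIP, 3 of knock-out ChIP and 1 of input in all, and no site within 150 bp. A single arm of the palindrome (TTGGCA or TGCCAA) was present in 23 of the 120 site windows of 300 bp (19.2%), in 18.6% of the windows of all sites, and in 15.5% of 14080 windows that tile the collagen regions. From 250 bp before to 50 bp after the start, 3 of 36 collagen promoters (8.33%) held an arm, those of Col2a1, Col12a1 and Col16a1, against 13.3% of all protein-coding genes. Matches are a description of the letters and not of binding.

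Tags were then counted over the whole regions, to compare the libraries gene by gene. Summed over the 36 genes, the wild-type ChIP was at 1.00 (0.973 to 1.04) of the input, after scaling by library totals, and all protein-coding genes were at 0.905 (0.903 to 0.907). The fibrillar class was at 1.10 (1.04 to 1.17), type IV at 0.880 (0.805 to 0.962) and the other class at 0.991 (0.949 to 1.03). Neighbouring type IV genes share their starts, and with the shared stretches counted once their value was 0.919 (0.839 to 1.01), an interval that includes 1. The fibrillar interval also included 1 without Col24a1, at 1.05 (0.980 to 1.12), and without Col11a1, at 1.06 (0.995 to 1.14), and the type IV interval without Col4a1, at 0.941 (0.849 to 1.04). Gene by gene, the ratio was read in the 28 genes with 50 or more tags in both libraries, with a median of 1.01 next to 0.943 over 7656 protein-coding genes. Its interval lay above 1 in 8 of 28 genes, next to 8.74% of 7656 genes, and these were Col3a1, Col5a2, Col8a1, Col9a1, Col11a1, Col12a1, Col24a1 and Col25a1. The interval lay below 1 in 6 of 28, next to 20.1%, and these were Col4a1, Col13a1, Col16a1, Col17a1, Col22a1 and Col27a1. Whether an interval clears 1 also depends on the number of tags. Such shares, here and below, were not matched for tag number or length. No gene reached 1.5-fold higher, as 0.718% of genes did, and Col17a1 alone of the 28 was 1.5-fold or more lower, as 8.25% of genes were. The remaining 8 genes, Col2a1, Col6a1, Col7a1, Col8a2, Col9a2, Col9a3, Col10a1 and Col11a2, had ratios from 0.386 to 1.08 on few tags.

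**Figure D2:**
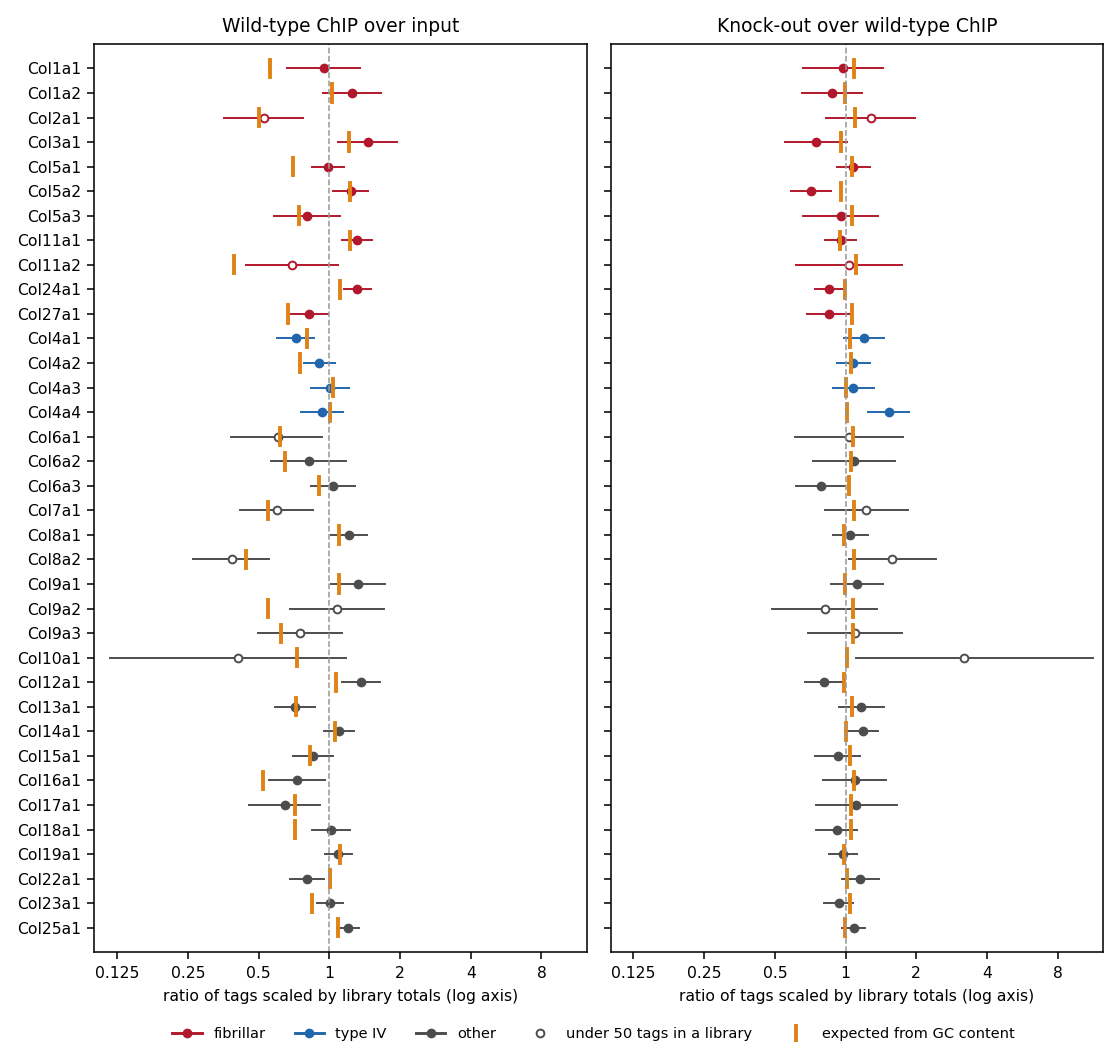
Ratios of tags scaled by library totals for each of the 36 collagen genes, wild-type ChIP over input on the left and knock-out over wild-type ChIP on the right (log axes), coloured by class, with lines for 95% counting intervals of 1 library per condition, open circles for genes under 50 tags and orange bars for the ratio expected from GC content. Among genes with 50 or more tags, wild-type over input ran from 0.649 in Col17a1 to 1.46 in Col3a1, and knock-out over wild-type from 0.713 in Col5a2 to 1.52 in Col4a4.

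The highest ratio was found in Col3a1, with 107 tags in wild-type ChIP, 75 in knock-out ChIP and 90 in input, and a ratio of 1.46 (1.09 to 1.95). Col12a1, which encodes a FACIT collagen of dense connective tissue, had 254, 193 and 228 tags and a ratio of 1.36 (1.14 to 1.64). Col9a1, a FACIT collagen of cartilage, had 123, 129 and 114 tags and a ratio of 1.32 (1.02 to 1.72). These intervals overlap and the order of the 3 genes is not resolved.

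Among the 28 genes with 50 or more tags, the lowest ratio was found in Col17a1, the hemidesmosome collagen of epithelia. It had 53, 55 and 100 tags in the same order and a ratio of 0.649 (0.456 to 0.914). The transmembrane collagen gene Col13a1 had 161, 176 and 276 tags and a ratio of 0.714 (0.584 to 0.870). Col4a1 had 193, 216 and 328 tags and a ratio of 0.720 (0.600 to 0.863). In these 3 genes both ChIP libraries stood below the input.

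Col1a1 had 58, 53 and 75 tags and a ratio of wild-type ChIP to input of 0.947 (0.660 to 1.35). Col1a2 had 106, 87 and 104 tags and a ratio of 1.25 (0.943 to 1.65). Both intervals contain 1. Col5a1 was at 0.984 (0.842 to 1.15) and Col5a2 at 1.23 (1.04 to 1.46). Col5a3 was at 0.804 (0.578 to 1.11), and Col4a2 at 0.906 (0.777 to 1.06).

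The ratio followed base composition closely. The GC content of the collagen regions ran from 35.3% to 56.0%, and across the 28 genes it correlated with wild-type over input at Pearson r = -0.828 and Spearman rho = -0.796. Across 7656 protein-coding genes, r was -0.558. Genes share the libraries and are not replicates, so these are descriptions. The ratio was therefore also divided by the ratio that all 1 kb windows of the genome gave for the GC content of each window of the gene. On this scale all collagen genes together were at 1.13 (1.10 to 1.17), fibrillar genes at 1.26 (1.19 to 1.34), type IV genes at 0.999 (0.914 to 1.09) and the other class at 1.11 (1.06 to 1.16), while all protein-coding genes were at 0.999. The ratio lay above 1 in 9 of 9 fibrillar, 1 of 4 type IV and 11 of 15 other genes with 50 or more tags, against 54.6% of protein-coding genes. The fibrillar value stayed between 1.22 and 1.30 when any single gene was left out. The rescaled ratio still correlated with GC content, now positively, at r = 0.367 across the 28 genes and 0.255 across the 7656. Genes rich in GC thus tended to higher values after rescaling.

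**Figure D3:**
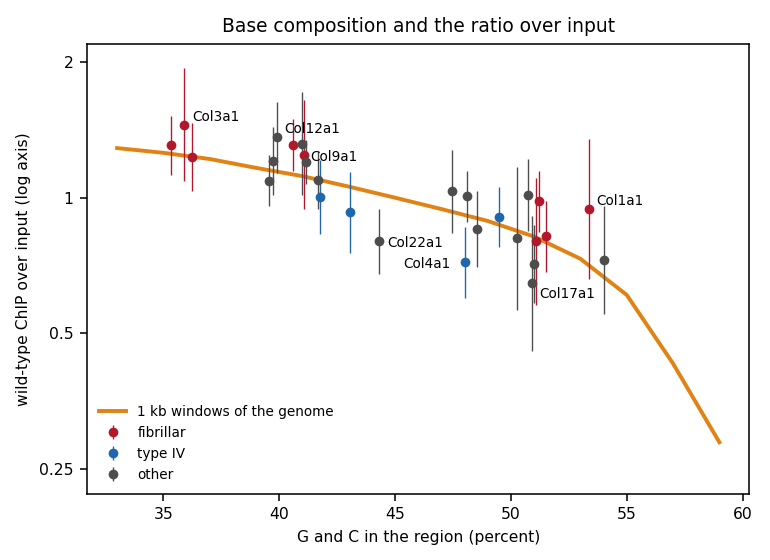
Wild-type ChIP over input (vertical axis, log scale) against the GC content of gene body and 5 kb upstream in percent (horizontal axis) for the 28 collagen genes with 50 or more tags, coloured by class, with 95% counting intervals and the ratio of all 1 kb windows of the genome by GC content as a line. The ratio falls with GC content (r = -0.828) much as the line does; the rescaled values in the text average the line over the windows of each gene, so a gene near the line can lie on either side of it here.

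Which genes stood out depended on this step. With the GC scale, the interval lay above 1 in 9 of 28 genes, again next to 8.74% of genes, and these were Col1a1, Col4a2, Col5a1, Col12a1, Col16a1, Col18a1, Col23a1, Col24a1 and Col27a1. Col12a1 and Col24a1 alone were above 1 on both scales, and Col16a1 and Col27a1 changed from below 1 to above 1. Below 1 there was 1 of 28 genes, Col22a1, next to 5.43%. Col1a1 moved from 0.947 to 1.69 (1.18 to 2.41), the highest value of the 28, Col5a1 from 0.984 to 1.41 (1.20 to 1.64) and Col4a2 from 0.906 to 1.21 (1.04 to 1.41). Col3a1 moved from 1.46 to 1.19 (0.894 to 1.60) and Col5a2 from 1.23 to 1.01 (0.851 to 1.20). Col1a2 was at 1.21 (0.916 to 1.60), and Col4a1 rose from 0.720 to 0.900 (0.750 to 1.08).

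Input tags gathered at the starts of collagen genes, whereas ChIP tags did not to the same extent. In the first 500 bp of the 36 genes the input was at 6.76-fold (5.84 to 7.78) of the genome average, and in the 500 bp before the start at 4.54-fold (3.80 to 5.39). The wild-type ChIP was at 1.70-fold (1.21 to 2.31) and 1.15-fold (0.755 to 1.67) in these bins, and the knock-out ChIP at 1.23-fold (0.808 to 1.78) and 1.77-fold (1.26 to 2.42). All protein-coding genes showed the same shape, with the input at 8.20-fold after the start. Over the 5 kb upstream alone, wild-type over input of the collagen genes was 0.766 (0.660 to 0.888). This ratio was not computed for all protein-coding genes, so it has no background here. In the 500 bp before their starts the input was at 5.05-fold and the wild-type ChIP at 1.59-fold. Without 1 kb on both sides of the start, the ratio of all collagen genes was 1.04 (1.01 to 1.08) and that of type IV genes 0.970 (0.885 to 1.06), an interval that includes 1.

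**Figure D4:**
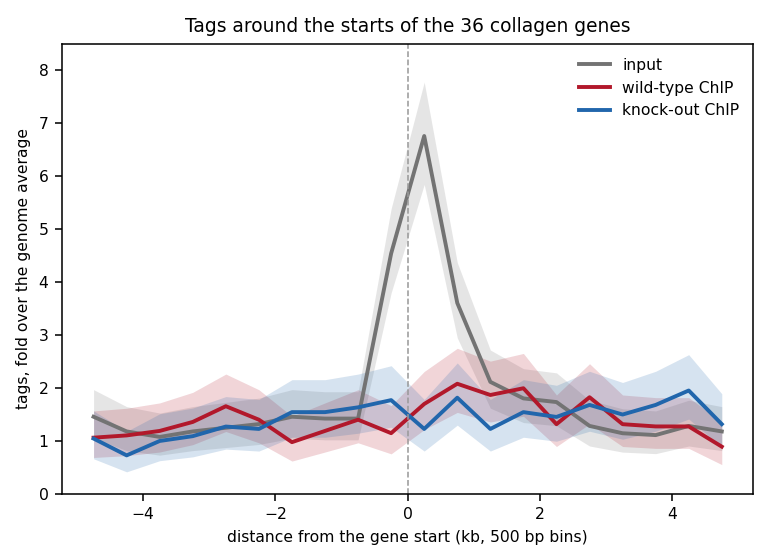
Tags of the 3 libraries in bins of 500 bp from 5 kb before to 5 kb after the gene start (horizontal axis, in kb), summed over the 36 collagen genes and given as fold over the genome average (vertical axis), with bands for 95% counting intervals. The input peaks at 6.76-fold just after the start, where the wild-type and knock-out ChIP are at 1.70-fold and 1.23-fold.

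The knock-out and wild-type ChIP libraries were compared over the same regions, which asks where tags change when NFI-C is missing. This ratio and wild-type over input share the wild-type library. Over all 36 genes the ratio was 1.01 (0.978 to 1.05), as it was 1.00 (0.999 to 1.00) for all protein-coding genes. The classes moved apart. Fibrillar genes were at 0.900 (0.843 to 0.960), type IV genes at 1.19 (1.09 to 1.31) and the other class at 1.03 (0.985 to 1.08). The ratio of fibrillar to type IV genes was 0.754 (0.674 to 0.844). Of the genes with 50 or more tags, 8 of 9 fibrillar genes lay below 1, all 4 type IV genes lay above 1, and 6 of 15 other genes lay below 1. The median of 6852 protein-coding genes was 1.00, so genes on either side of 1 are common. The type IV genes are neighbouring pairs, Col4a1 with Col4a2 and Col4a3 with Col4a4, that share stretches. With these counted once, the type IV value was 1.18 (1.07 to 1.30). On the GC scale the fibrillar value was 0.891 (0.835 to 0.950) and the type IV value 1.16 (1.06 to 1.28). Leaving out any single gene moved the fibrillar value between 0.869 and 0.929 and the type IV value between 1.11 and 1.25. The values closest to 1 were those without Col5a2, at 0.929 (0.867 to 0.996), and without Col4a4, at 1.11 (1.00 to 1.24). The lower end of the latter interval all but reached 1. With 1 library on each side, a difference between the cultures or libraries cannot be told apart from the genotype.

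Gene by gene, the median of knock-out over wild-type was 1.01 in 28 collagen genes and 1.00 in 6852 protein-coding genes, all with 50 or more tags in both ChIP libraries. The interval lay below 1 in 4 of 28 collagen genes, next to 6.06% of genes, and above 1 in 2 of 28, next to 6.38%. Below 1 were Col5a2, Col6a3, Col12a1 and Col24a1. Col5a2 had 273 wild-type and 182 knock-out tags and a ratio of 0.713 (0.588 to 0.863). Col6a3 had 164 and 120 tags and a ratio of 0.783 (0.613 to 0.996), Col12a1 had 254 and 193 and a ratio of 0.813 (0.670 to 0.984), and Col24a1 had 468 and 373 and a ratio of 0.853 (0.742 to 0.979). Col3a1, the neighbour of Col5a2, was second lowest at 0.750 (0.551 to 1.02), with an interval that just includes 1. When every uniquely mapped tag was counted, repeats of a position included, Col5a2 fell to 0.574 (0.515 to 0.638) and Col3a1 was at 0.729 (0.617 to 0.862). The same count put Col5a1 at 1.25 (1.13 to 1.38) and Col4a2 at 1.31 (1.19 to 1.44), both above 1. In that count 9783430 unique reads stand for 3350071 tags in wild-type ChIP and 10820536 for 3132004 in knock-out ChIP. Its intervals take repeats of a position as independent, so they are too narrow to be read as counting error. Col5a2 and Col3a1 together held 10 of the sites, at which the knock-out library had 2 tags in all. Those sites were chosen on wild-type tags.

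Above 1 were Col4a4, with 167 wild-type and 238 knock-out tags and a ratio of 1.52 (1.25 to 1.87), and Col14a1, a FACIT gene, with 348 and 387 tags and a ratio of 1.19 (1.03 to 1.38). Col4a4 was the only collagen gene of the 28 at 1.5-fold or more higher, as were 1.26% of genes, and none was 1.5-fold or more lower, as were 1.04%. The 8 genes with fewer tags ran from 0.816 in Col9a2 to 3.21 (1.11 to 11.3) in Col10a1, with 5 wild-type and 15 knock-out tags, and the interval of Col8a2 also lay above 1, at 1.58 (1.04 to 2.42) on 40 and 59 tags. Among the 28 genes, Col4a1 came next after Col4a4, at 1.20 (0.981 to 1.46), with an interval that includes 1. Col4a4 encodes a chain of the same basement membrane network as Col4a3, and their starts lie 72 bp apart on opposite strands. Col4a3 was at 1.08 (0.886 to 1.32), and both had less than 1% of their length in H3K36me3-rich regions and all of it in a lamina-associated domain. Col1a1 was at 0.977 (0.661 to 1.44), Col1a2 at 0.878 (0.653 to 1.18), Col5a1 at 1.08 (0.918 to 1.27), Col5a3 at 0.954 (0.658 to 1.38) and Col4a2 at 1.08 (0.917 to 1.27), all with intervals that include 1 when a position counts once.

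The collagen genes were then placed in the deposited regions rich in histone marks and in lamina-associated domains. H3K4me3 is found at active promoters, H3K36me3 over transcribed gene bodies and H3K27me3 at genes silenced by Polycomb, and the lamina contacts silent chromatin. These regions are broad and the lamina domains come from human fibroblasts carried over to the mouse genome. H3K4me3-rich regions touched 34 of 36 collagen genes, next to 68.5% of all genes, H3K36me3-rich regions 29 (57.7%), H3K27me3-rich regions 34 (74.3%) and lamina domains 8 (21.1%). These shares compare regions of unlike length, with medians of 115 kb and 20.4 kb. H3K36me3 lay within 1 kb of the start in 52.8% of collagen genes, against 44.8% of all genes. Within 1 kb of the start, H3K4me3 and H3K27me3 were both present in 30 of 36 collagen genes (83.3%), against 55.6% of all genes. All 11 fibrillar and all 4 type IV genes carried both there, and so did 15 of 21 other genes.

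Sites were denser in collagen genes rich in H3K36me3, though no more of these genes had a site. H3K36me3-rich regions covered 50% or more of 24 of 36 collagen genes (66.7%), next to 48.1% of all protein-coding genes. Among the 24 were 10 of 11 fibrillar genes, all but the cartilage collagen gene Col2a1. These 24 genes held 85 sites, or 4.01 per 100 kb (3.20 to 4.95), and all 6 upstream sites. The 12 genes with less cover held 36 sites, or 1.69 per 100 kb (1.19 to 2.34), although the summed lengths were 2121 and 2128 kb. The ratio of the densities was 2.37 (1.59 to 3.60). Tag depth differed too. In the 24 genes wild-type ChIP was at 1.39-fold and input at 1.38-fold of the genome average. In the 12 genes both were at 1.03-fold. A link of site density to depth was not tested. A site was present in 17 of the 24 genes and 9 of the 12, against 55.7% and 29.1% of all protein-coding genes in these groups. The median region was 69.3 kb in the 24 genes and 143.5 kb in the 12, next to 26.0 and 14.7 kb for all protein-coding genes. These shares therefore compare genes of unlike length. All protein-coding genes gave 2.77 and 1.56 per 100 kb, so a difference of the same direction was found in the genome as a whole. Wild-type over input was 1.01 (0.964 to 1.05) in the 24 genes and 1.00 (0.954 to 1.05) in the 12, next to 0.845 and 0.978 for all protein-coding genes. The ratio of the 2 collagen values was 1.00 (0.941 to 1.07), so they differed only after rescaling. On the GC scale they were 1.22 (1.17 to 1.27) and 1.05 (0.996 to 1.10), while for all protein-coding genes the value was 1.01 in both groups. Knock-out over wild-type was 0.950 (0.907 to 0.995) in the 24 genes and 1.09 (1.04 to 1.15) in the 12, next to 0.996 and 1.01 for all protein-coding genes. Within the other class, the 12 genes with 50% or more cover held 3.28 sites per 100 kb (2.14 to 4.80) and the 9 with less held 1.60 (1.07 to 2.30). The type IV genes Col4a1 and Col4a2 together held 5.37 (2.93 to 9.004), and Col4a3 and Col4a4, with less cover, 2.49 (1.00 to 5.13). Among fibrillar genes Col2a1 alone had less cover, and it had no site.

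**Figure D5:**
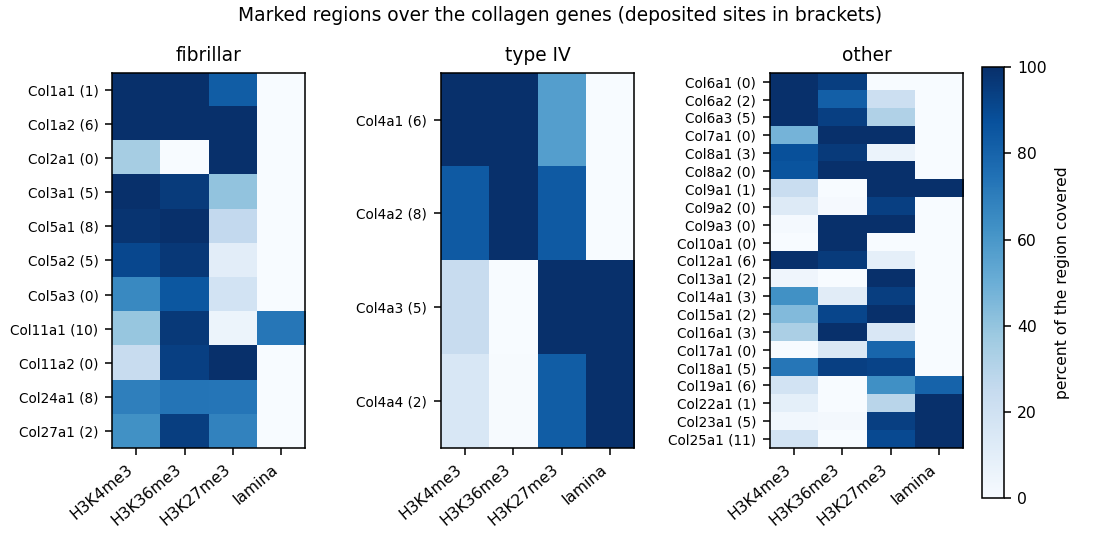
Heat map of the percent of each collagen gene region (gene body and 5 kb upstream) covered by H3K4me3-rich, H3K36me3-rich and H3K27me3-rich regions and by lamina domains, in panels by class, with the number of sites of each gene in brackets. H3K36me3-rich regions cover most of every fibrillar gene but Col2a1, and lamina domains cover 8 genes, among them Col4a3 and Col4a4.

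Site by site, 68.3% of the 120 sites lay in H3K4me3-rich regions, next to 42.6% of all sites. H3K36me3-rich regions held 65.0% (35.4%), H3K27me3-rich regions 66.7% (54.5%) and lamina domains 36 of 120 (32.4% of all sites). All sites include those outside genes and their 5 kb upstream. The sites of all protein-coding genes gave 53.6% for H3K4me3, 57.6% for H3K36me3, 52.5% for H3K27me3 and 24.0% for lamina domains. Against these, the gaps for H3K4me3 and H3K36me3 were smaller and that for H3K27me3 was slightly larger. The lamina share of collagen sites lay below that of all sites but above that of the sites of protein-coding genes. Marked regions cover much of the collagen genes themselves, from 40.8% of their length for lamina domains to 64.7% for H3K27me3, so the density inside and outside them was compared. It was 4.17 (3.31 to 5.17) against 1.68 (1.19 to 2.31) sites per 100 kb for H3K4me3 and 3.88 (3.07 to 4.84) against 1.89 (1.36 to 2.56) for H3K36me3. All protein-coding genes gave 3.63 against 1.38 and 2.83 against 1.51, so both contrasts were found in the genome as a whole. For H3K27me3 it was 2.93 (2.32 to 3.64) against 2.68 (1.91 to 3.64), with intervals that overlap, and 2.48 against 1.74 for all genes. Inside lamina domains it was 2.09 (1.46 to 2.89), and outside 3.36 (2.68 to 4.15), next to 1.67 and 2.23 for all genes. The 8 genes in lamina domains were Col4a3, Col4a4, Col9a1, Col22a1, Col23a1 and Col25a1 over their whole length, Col19a1 over 80.4% and Col11a1 over 73.0%. Col11a1 was the only one of these with most of its length in H3K36me3-rich regions, 96.3%, and it held 10 sites, or 5.12 per 100 kb.

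Collagen chains are hydroxylated, folded, trimmed and cross-linked by a set of other proteins, and 27 genes for these steps were examined in the same way. Of the 27, 18 had a site, next to 41.9% of all genes, and the 49 sites came to 2.95 per 100 kb (2.18 to 3.90), close to the value of the collagen genes. An upstream site was found in 5 of 27, next to 11.8%: P4hb and Serpinh1, which encode a subunit of prolyl hydroxylase and the collagen chaperone HSP47, Loxl3 and Loxl4, which encode cross-linking lysyl oxidases, and Pcolce, which encodes an enhancer of the procollagen protease. The most sites were in Loxl2 with 9, Tll1 with 7 and Leprel1 with 6. Wild-type over input was 0.871 (0.829 to 0.915), and 1.05 (1.00 to 1.11) on the GC scale. Before rescaling, its interval lay above 1 in 3 of 17 genes with 50 or more tags, Adamts3, Plod2 and Tll1, next to 8.74% of all genes, and below 1 in 5, Adamts2, Bmp1, Loxl1, P4ha1 and Plod1, next to 20.1%. On the GC scale it lay above 1 in 4 of 17, Adamts3, Lox, Loxl3 and Plod2, next to 8.74%, and below 1 in P4ha1 alone, next to 5.43%. The interval of knock-out over wild-type lay above 1 in 2 of 16 genes, Loxl1 and P4ha1, next to 6.38%, and below 1 in 0 of 16, next to 6.06%. Loxl3, with 58 tags in wild-type and 25 in knock-out ChIP, is outside the 16 because of its knock-out count, and its ratio was 0.461 (0.276 to 0.749). Over all 27 genes it was 1.06 (1.00 to 1.11).

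One collagen gene also carries a microRNA of the deposited list of microRNAs within transcripts. It is mir-455 in Col27a1, a fibrillar collagen gene of cartilage, and the transcript listed with it held 1 site.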

How the data were processed

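Reads of 3 libraries were mapped by the authors to mm9 with ELAND, and each read was deposited with its match code, position and strand, so the deposited values are counts of reads without normalization. The deposited site list was made by the authors with ChIP-peak, and the deposited mark files pair region boundaries with the closest site. For the autosomes 1 to 19 and both sex chromosomes, the 5′ ends of unique reads with at most 2 mismatches were taken as tags, and tags at the same base and strand were counted once. The wild-type library had 14358325 reads (68.1% unique), the knock-out library 16330049 (66.3%) and the input 12029975 (45.1%).

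Genes were taken from GENCODE vM1 on NCBI build 37. A site was counted for a gene when its middle lay in the gene body or the 5 kb upstream. Ratios were scaled by the total of counted tags, with exact binomial (Clopper-Pearson) intervals, counts with exact Poisson intervals, and ratios of 2 ratios with a normal approximation of the log ratio. GC expectation came from windows of 1 kb in bins of 2% GC, leaving out windows of more than 50 tags. The rule for the members uses no measured value, but members, classes and gene lists were chosen with earlier results of these data known. Genes and sites were named by a fixed rule: upstream sites, the 3 highest and lowest genes by each measure, types I, III and V, Col4a1 and Col4a2, the 5 best covered sites and every site with a consensus match. Ratios and intervals were tested on simulated data with counting error alone. That test could not show how they hold where libraries differ by more than counting error. Alternatives covered the tag count, the region, the window, base composition, the mark at the start and the mismatches. The software was pandas 2.3.3, SciPy 1.17.1, NumPy 2.4.6 and matplotlib 3.10.9 under Python 3.11.15.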

Additional observations from a re-analysis of the deposited data

How the results depend on the processing

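Each condition had 1 library, so no replicate could be left out. No paired analysis was possible because each condition had 1 library. Of the values that answer a comparison, 51 under an alternative stayed within their interval or within 1.5 times the count and 16 did not. A second set joined values of selected single genes with values of each class without 1 member. In that set 279 values stayed and 9 did not. The single-gene values of Col16a1 and Col27a1, given next, were not part of it. Rescaled by base composition, wild-type over input of Col16a1 went from 0.729 (0.553 to 0.958) to 1.40 (1.06 to 1.84) and that of Col27a1 from 0.821 (0.685 to 0.983) to 1.23 (1.03 to 1.47). Wild-type over input of Col5a1 was 0.840 (0.745 to 0.947) with every uniquely mapped tag and 1.41 (1.20 to 1.64) rescaled by base composition, and that of Col1a1 0.671 (0.510 to 0.885) and 1.69 (1.18 to 2.41). Intervals from every uniquely mapped tag take repeats of a position as independent and are too narrow. For wild-type over input of all collagen genes, 1.00 became 0.766 over the 5 kb upstream alone, 1.13 when rescaled by base composition and 1.04 without 1 kb on both sides of the start. Rescaled by base composition, the fibrillar, type IV and other classes were at 1.26, 0.999 and 1.11, and without 1 kb around the start type IV was at 0.970. With shared stretches counted once, type IV was at 0.919 (0.839 to 1.01). With every uniquely mapped tag, knock-out over wild-type of the other class was 1.08. Over 5 kb upstream alone, 6 sites and 5 genes with a site remained. With 600 bp and tags moved 75 bp, 117 sites had 5 or more wild-type tags. Within 1 kb of the start, 19 genes had H3K36me3 (52.8%, next to 44.8% of all protein-coding genes). With at most 1 mismatch there were 6 matches, 0 sites with a match and a wild-type over input ratio of 8.57 (1.10 to 386) at the matches, and within 50 bp there was 1 site with a match. The 600 bp window, the starts left out and the rescaling of classes were chosen after seeing the data. Depth limits all values at single sites, where 0 tags allow up to 3.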
